A study of Bos taurus with 16 samples.

Results

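The hepatic transcriptomes compared here are those of 16 Holstein cows that differed in their own signal of *IGF1*, the transcript of insulin-like growth factor 1. All 16 arrays of the series were used. Within each label group of 8 cows, the 4 cows with the highest *IGF1* signal were set against the 4 cows with the lowest, which gave 8 *IGF1*-high and 8 *IGF1*-low cows. These are not groups of the study: they were chosen by a measured value, so differences between them are associations among cows and not the effect of a treatment.

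Liver biopsies had been taken at week 1 postpartum from multiparous Holstein cows that all received the same total mixed ration, and RNA from each cow was run on 1 Affymetrix whole-transcript array. The *FGF21* high and *FGF21* low label groups were the extremes of a larger herd, selected by the study on hepatic expression of *FGF21* in that same week. The labels name no genotype or agent that differed between cows. There was 1 biopsy and 1 array per cow, so p-values measure the spread between cows.

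Insulin-like growth factor 1 is made mainly by hepatocytes. Growth hormone binds its receptor (encoded by *GHR*), the kinase JAK2 phosphorylates the transcription factor STAT5, and STAT5 drives transcription of *IGF1* and of *IGFALS*, whose product holds IGF1 in a long-lived circulating complex with binding proteins. In dairy cows this axis is known to be uncoupled around calving, when hepatic *GHR* and plasma IGF1 fall while growth hormone is high, and inflammatory signals are known to lower the response of liver to growth hormone.

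The *IGF1* signal came from 1 transcript cluster with 26 probes on chromosome 5 (66532879 to 66604699, strand and genome build not given in the sources used here). Its mean signal stood at the 88.3rd percentile of all clusters. In the *FGF21* high group, the 4 *IGF1*-high cows had log2 signals of 9.60, 8.61, 8.29 and 8.15, and the 4 *IGF1*-low cows had 8.09, 7.84, 7.73 and 7.59. In the *FGF21* low group the corresponding values were 9.26, 9.25, 9.02 and 8.86 against 8.50, 8.24, 7.85 and 7.64. The cows next to the cut were thus 0.06 log2 units apart among *FGF21* high cows, where the split ran through a continuous range, and 0.35 apart among *FGF21* low cows. By construction the mean difference was 0.85 (1.80-fold) for *FGF21* high and 1.04 (2.06-fold) for *FGF21* low cows. Since the label groups were ranked separately, *IGF1*-low cows of the *FGF21* low group with 8.50 and 8.24 stood above or near *IGF1*-high cows of the *FGF21* high group.

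**Figure D1:**
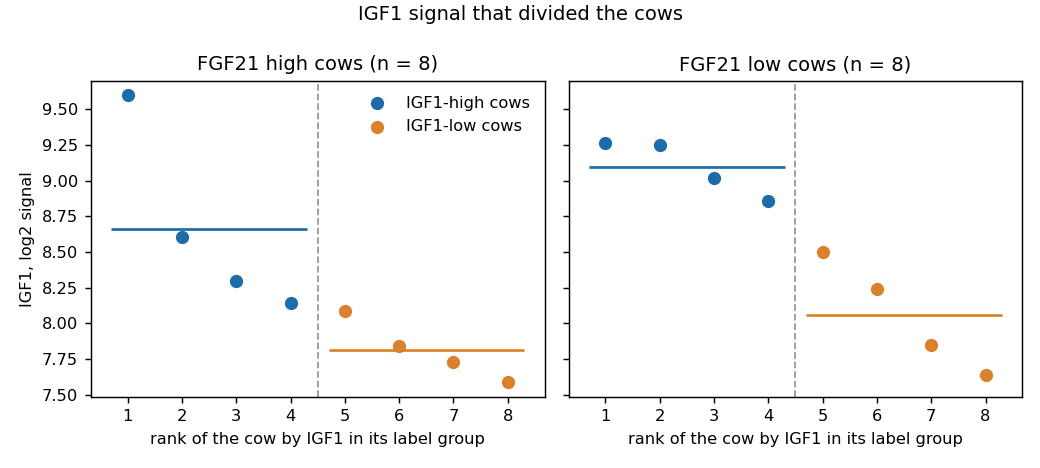
Log2 signal of *IGF1* (vertical axis) for each cow, by its rank within its label group (horizontal axis). Blue points are the *IGF1*-high cows, orange points the *IGF1*-low cows, horizontal lines their means and the dashed line the cut. The gap at the cut is 0.06 for the *FGF21* high and 0.35 for the *FGF21* low cows.

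Array medians lay between 6.25 and 6.34, and the interquartile range of the deviations from the median array lay between 0.186 and 0.282. Within the *FGF21* low group this range averaged 0.199 in the *IGF1*-high and 0.241 in the *IGF1*-low cows. Within the *FGF21* high group the averages were 0.244 and 0.231. Hepatocyte markers, among them *ALB*, averaged 12.02 to 12.16 on the log2 scale in the *IGF1*-high cows and 11.94 to 12.07 in the *IGF1*-low cows. Of these markers 9 had positive and 3 negative estimates. *ALB* is among the highest signals of the array, where RMA compresses differences, so these averages say little about cell composition. The running number of the labels had a median of 22 in the *IGF1*-high and 10 in the *IGF1*-low cows. These medians were 15.5 and 8.5 within the *FGF21* high group and 27 and 10 within the *FGF21* low group. In the latter the *IGF1*-high cows had numbers 21, 25, 29 and 30, and the *IGF1*-low cows had 7, 9, 11 and 31. Separation of the sets within the *FGF21* low group thus largely coincides with running number. The part of running number in the results below was not tested further than by adding it as a covariate, with which the difference of *GHR* was 0.48 and that of *HP* was −3.05.

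Across 20420 transcript clusters, with the label group as a block, 2 transcripts differed between *IGF1*-high and *IGF1*-low cows at an adjusted p under 0.05 (limma, Benjamini-Hochberg), both higher in the *IGF1*-high cows (0.00979% of all clusters) and none lower. At an unadjusted p under 0.05, 455 transcripts (2.23%) were higher and 792 (3.88%) were lower, 1247 in all, or 6.11% where 5% would pass with no difference. With a change above 1.2-fold as well, 197 transcripts (0.965%) were higher and 253 (1.24%) lower. When the arrays were quantile normalized again, that split turned to 234 higher and 170 lower, so the balance of directions depended on the scaling. With each array's median subtracted it was 246 higher and 189 lower. The median difference of all clusters was −0.02, and 41.6% of them had a positive estimate. Counts of list members below are at p under 0.05 without adjustment, and the background is 2.23% of all clusters higher and 3.88% lower. The single-gene differences below other than those of *XPNPEP2* and *TEX12* did not pass the adjusted threshold, and they are described by direction, size and overlap. How many of all clusters separate between the sets was not counted, so a lack of overlap only describes the gene named.

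*XPNPEP2*, which encodes a cell-surface aminopeptidase that degrades proline-containing peptides such as bradykinin, rose from 6.52 ± 0.30 (SD, n = 8) in the *IGF1*-low cows to 7.29 ± 0.48 (n = 8) in the *IGF1*-high cows. This is a log2 difference of 0.78 ± 0.12 (SE, 1.71-fold, adjusted p = 0.0492 by limma). *TEX12*, which encodes a protein of the synaptonemal complex of meiotic cells, rose by 0.75 ± 0.12 (1.68-fold, adjusted p = 0.0492 by limma) from a low signal, with 4.83 to 5.96 in the *IGF1*-high cows and 4.16 to 5.19 in the *IGF1*-low cows. Within each label group, all 4 *IGF1*-high cows lay above all 4 *IGF1*-low cows for both genes. Both calls sat at the threshold: with each cow left out in turn, *XPNPEP2* passed in 1 of 16 fits, that without replicate 2 of the *FGF21* high group (adjusted p from 0.014 to 0.162) and *TEX12* in 1 of 16, that without replicate 6 of the same group (0.035 to 0.162).

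The gene with the next smallest p, *SPARC*, encodes a collagen-binding matrix protein. Its signal was 10.04 to 10.71 in the *IGF1*-high cows and 9.51 to 10.03 in the *IGF1*-low cows, so the sets did not overlap, and the difference was 0.59 ± 0.10 (adjusted p = 0.121 by limma). The other transcripts in the 10 with the smallest p and a higher signal in *IGF1*-high cows differed by 0.34 to 0.52. They included *MIR423* (a microRNA precursor, 0.52), *ADIPOR2* (a receptor of the adipose hormone adiponectin, 0.48), *NECAB2* (a calcium-binding protein, 0.44), *NCKAP5* (0.40), *HHEX* (a homeobox factor of liver development, 0.37), *SPATS2L* (0.36) and *MSRB2* (a mitochondrial methionine sulfoxide reductase, 0.34).

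Of the GH and IGF receptors, *GHR* was the only one higher at p under 0.05. In the *IGF1*-high cows *GHR* had its lowest value at 9.30, its median at 9.85 and its highest at 10.23, and in the *IGF1*-low cows these were 8.99, 9.24 and 9.67. All 8 *IGF1*-high cows lay above the median of the *IGF1*-low cows, though the ranges overlapped. The difference was 0.53 ± 0.13 (1.45-fold, p = 0.000768, adjusted p = 0.414 by limma; exact permutation p = 0.00408, two-sided), and it was 0.50 within the *FGF21* high and 0.57 within the *FGF21* low group. When *IGF1* was used as a continuous covariate in place of the split, *GHR* changed by 0.55 log2 units per log2 unit of *IGF1* (adjusted p = 0.0538 by limma).

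*INSRR*, an orphan relative of the insulin receptor, had a low signal and was lower by 0.21 (adjusted p = 0.565). None of the other 4 receptors was past p under 0.05. The difference was 0.04 ± 0.06 for *IGF1R* and −0.04 ± 0.08 for the insulin receptor *INSR*, and the values of *IGF2R* and *PRLR* are not reported here. In all, 1 of the 6 receptors measured was higher and 1 lower at p under 0.05 (against 2.23% and 3.88% of all clusters).

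The 12 IGF ligands and binding proteins measured had a median difference of −0.01. At p under 0.05, 1 was higher (against 2.23% of all clusters) and none lower. This was *IGFALS*, with 7.79 to 8.79 in the *IGF1*-high cows and 7.71 to 8.23 in the *IGF1*-low cows, a difference of 0.34 ± 0.12 (adjusted p = 0.679 by limma, exact permutation p = 0.0278). *IGFBP3*, the main carrier of IGF1 in blood, had a difference of 0.20 ± 0.13 (adjusted p = 0.877). *IGFBP2* had −0.25 ± 0.16 (adjusted p = 0.881), with 1 *IGF1*-high cow at 10.58, far below the others. *IGFBP1*, a carrier that insulin represses, had −0.39 ± 0.28 (adjusted p = 0.913). Its difference was 0.04 within the *FGF21* high and −0.82 within the *FGF21* low group (interaction adjusted p = 0.9995).

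Of 18 genes of GH signal transduction and feedback, 1 was higher and 1 lower at p under 0.05. The shares of all clusters were 2.23% and 3.88%, and the median difference of the list was −0.07. *CISH*, a feedback gene that STAT5 induces, was higher by 0.19 ± 0.09 (adjusted p = 0.810 by limma, exact permutation p = 0.0506). Replicate 1 of the *FGF21* high group, an *IGF1*-low cow, had a *CISH* signal of 6.05, with 6.48 in the next cow of its set. The count of higher genes in the list was 0 in 19 of the alternative fits. The count of lower genes ran from 0 to 3 with single cows left out. *SOCS3*, an inhibitor of cytokine and GH receptor signalling that inflammatory cytokines induce, was lower by 0.32 ± 0.13 (adjusted p = 0.732). Its difference was −0.50 within the *FGF21* high group, where the sets did not overlap, and −0.13 within the *FGF21* low group, where they did. *SOCS2*, another target of STAT5, had 0.17 ± 0.20, *STAT5B* 0.07 ± 0.07, *STAT5A* −0.14 ± 0.08 and *STAT3* −0.17 ± 0.10, none with a p under 0.05. *FGF21* itself had a difference of −0.37 ± 0.26 (adjusted p = 0.900).

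**Figure D2:**
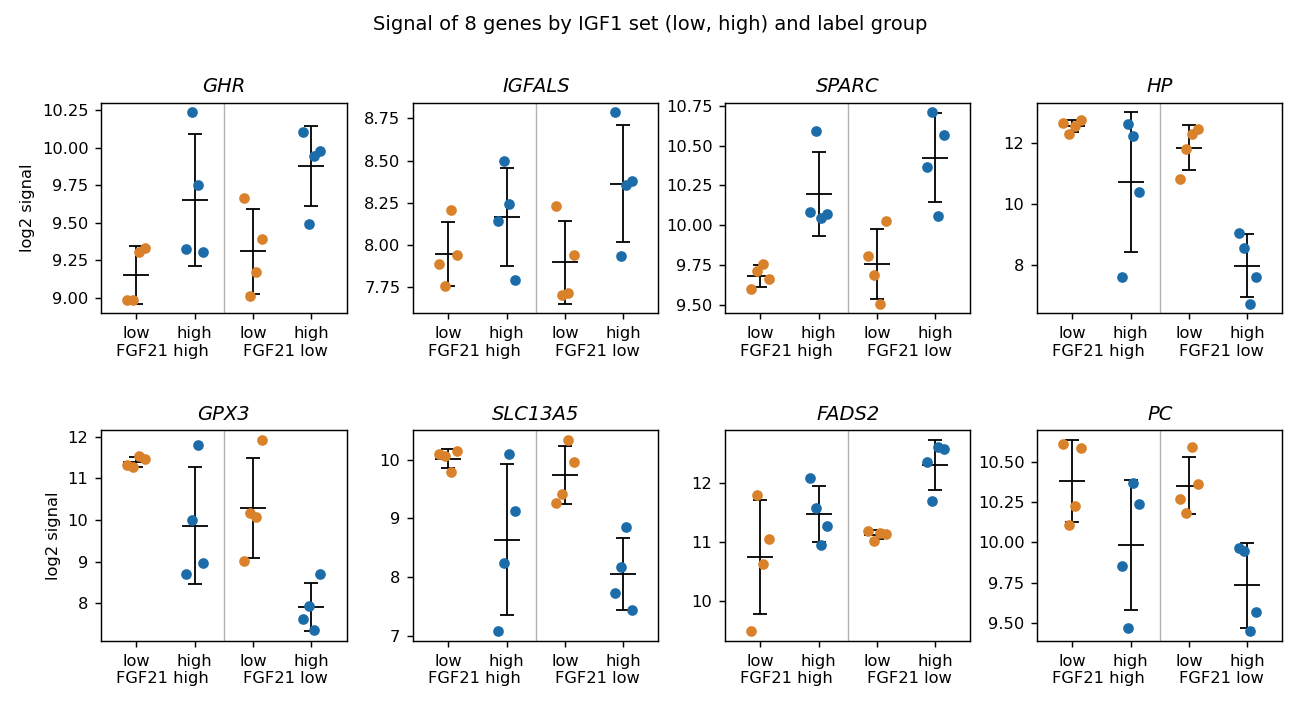
Log2 signal (vertical axes) of 8 genes for each cow, by label group and *IGF1* set (orange *IGF1*-low, blue *IGF1*-high, 4 cows each). Black bars are means and error bars SD. *HP* in the *FGF21* low group falls into 6.74 to 9.05 for the *IGF1*-high cows and 10.80 to 12.45 for the *IGF1*-low cows.

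Of 21 positive acute phase proteins, which hepatocytes make more of under inflammatory cytokines, 9 were lower in the *IGF1*-high cows at p under 0.05, against 3.88% of all clusters, and none was higher. The point estimate was negative for 20 of the 21, with a median of −0.19, and for 18 it was negative within both label groups. The median was −0.22 within the *FGF21* high and −0.07 within the *FGF21* low group. The mean log2 signal of the list overlapped between the sets, with 10.62 to 11.56 in the *IGF1*-high and 10.98 to 11.58 in the *IGF1*-low cows. None passed the adjusted threshold.

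*HP* encodes haptoglobin, the haemoglobin-binding protein that is a main acute phase reactant of cattle. It had the largest difference of all transcripts tested. Its log2 signal had its lowest value at 6.74, its median at 8.80 and its highest at 12.60 in the *IGF1*-high cows, and these were 10.80, 12.37 and 12.75 in the *IGF1*-low cows. The difference was −2.84 ± 0.57 (7.18-fold lower, p = 9.28e-05, adjusted p = 0.324 by limma; exact permutation p = 0.00163). In the *FGF21* low group the 4 *IGF1*-high cows had 9.05, 8.55, 7.61 and 6.74, and the 4 *IGF1*-low cows had 12.45, 12.29, 11.79 and 10.80. In the *FGF21* high group the *IGF1*-high cows were split, with 12.60 and 12.23 in 2 of them and 10.39 and 7.62 in the others, and the *IGF1*-low cows had 12.27 to 12.75. The cow with the highest *IGF1* signal of all, 9.60, was thus also the *IGF1*-high cow with the highest *HP*. The differences were −1.84 and −3.85 within the *FGF21* high and low groups, and the test of that contrast gave an adjusted p of 0.9995.

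*SAA3*, a serum amyloid A gene, ran from 6.55 through a median of 8.29 to 11.21 in the *IGF1*-high cows and from 8.63 through 9.86 to 10.56 in the *IGF1*-low cows, a difference of −1.41 ± 0.45 (adjusted p = 0.611). With *IGF1* as a continuous covariate its slope was −0.60 (adjusted p = 0.866). *LBP*, which encodes lipopolysaccharide-binding protein, was lower by 0.74 ± 0.19 (adjusted p = 0.414) and did not overlap between the sets within the *FGF21* low group. *SAA4* was lower by 0.69 ± 0.24 (adjusted p = 0.656) and the serine protease inhibitor *SERPINA3* by 0.35 ± 0.10 (adjusted p = 0.555). *SERPINA3-1*, a close paralog, was lower by 0.41 ± 0.08 (adjusted p = 0.324). The *SERPINA3* and serum amyloid genes belong to families of near-identical copies, and how their probes share signal is uncertain. The fibrinogen genes and *C3*, also in the list, had differences between −0.10 and −0.02.

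Of 14 negative acute phase proteins, which fall in inflammation, 3 were higher at p under 0.05 (against 2.23% of all clusters) and none lower, with a median of 0.09. They were *PON1* (paraoxonase of high-density lipoprotein, 0.28 ± 0.08, adjusted p = 0.494), *TTR* (transthyretin, 0.27 ± 0.08, adjusted p = 0.569) and *AHSG* (fetuin A, 0.24 ± 0.10, adjusted p = 0.721). *ALB* had 0.02 ± 0.05. Of 19 cytokine and NF-κB targets, 1 was lower (against 3.88% of all clusters), the feedback inhibitor *NFKBIA* (−0.24 ± 0.11, adjusted p = 0.812 by limma). The median of these targets was −0.08. Of 31 complement and coagulation genes, 4 were lower and 1 higher (against 3.88% and 2.23% of all clusters), with a median of −0.01. The lower count was 2 without replicate 2 or replicate 7 of the *FGF21* high or replicate 8 of the *FGF21* low group, and 0 with *IGF1* as a continuous covariate. Lower in the split were, among others, the complement components *C4A* (−0.31), *C6* (−0.20) and *C5* (−0.15), and the higher one was *HRG*, histidine-rich glycoprotein (0.22).

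**Figure D3:**
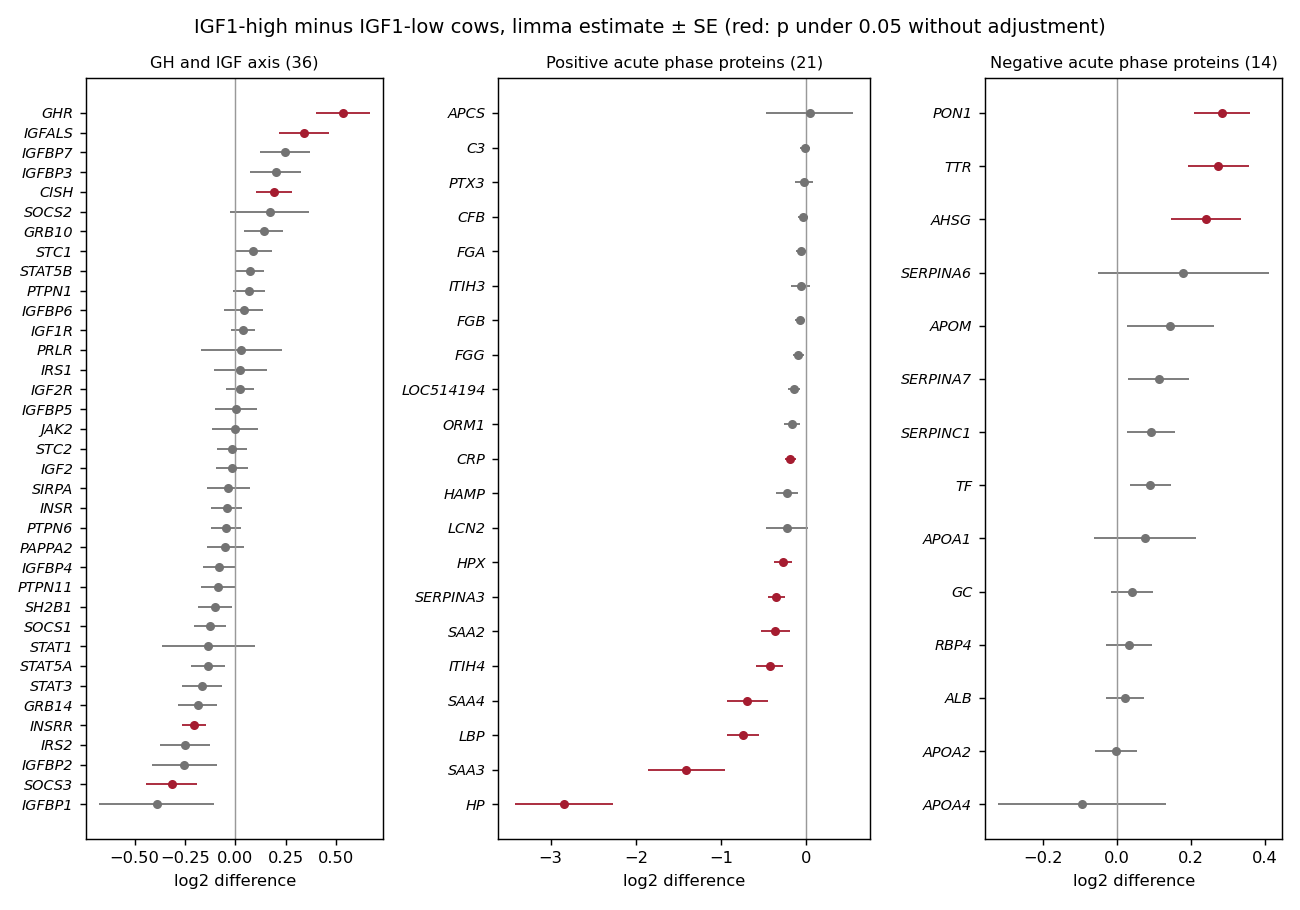
Log2 difference between *IGF1*-high and *IGF1*-low cows (horizontal axes, limma estimate ± SE) of each measured member of the GH and IGF lists, the positive and the negative acute phase proteins. Red points have p under 0.05 without adjustment, 9 of 21 on the negative side among the positive acute phase proteins and 3 of 14 on the positive side among the negative ones. The symbol LOC514194 is the array's name for *CP*.

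Among the transcripts with the smallest p and a lower signal stood *SLC13A5*, which encodes the sodium-dependent citrate transporter of the hepatocyte membrane. It ran from 7.08 through a median of 8.21 to 10.09 in the *IGF1*-high cows and from 9.26 through 10.01 to 10.33 in the *IGF1*-low cows. The difference was −1.53 ± 0.31 (2.89-fold lower, p = 9.02e-05, adjusted p = 0.324 by limma; exact permutation p = 0.00122). *GPX3*, the secreted glutathione peroxidase, ran from 7.35 through 8.70 to 11.79 against 9.02 through 11.30 to 11.92, a difference of −1.97 ± 0.40 (3.91-fold lower, p = 0.000111, adjusted p = 0.324 by limma; exact permutation p = 0.00327). For both genes the *IGF1*-high cow with the highest value was replicate 6 of the *FGF21* high group, and that was the only cow without which they passed the adjusted threshold. With each cow left out in turn, the adjusted p ran from 0.0191 to 0.530 for *SLC13A5* and from 0.0191 to 0.536 for *GPX3*. *SPIDR*, a scaffold protein of DNA repair, was lower by 0.82 ± 0.20 (adjusted p = 0.414). *BHMT*, which uses betaine to remethylate homocysteine, was lower by 0.42 ± 0.09 (adjusted p = 0.362). The others, all with low signals, were *NEURL2* (−0.39), *HSPD1* (−0.36), *ELFN2* (−0.34) and *KRT85* (−0.30). Among them *NEURL2* did not overlap between the sets.

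Genes of lipid metabolism differed member by member. *FADS2*, the delta-6 desaturase of polyunsaturated fatty acid synthesis, was higher by 0.96 ± 0.24 (1.94-fold, p = 0.000893, adjusted p = 0.414 by limma; exact permutation p = 0.00653). It ran from 10.95 through 11.88 to 12.60 in the *IGF1*-high cows and from 9.48 through 11.09 to 11.78 in the *IGF1*-low cows, and the sets did not overlap within the *FGF21* low group. *GPAM*, which starts glycerolipid synthesis, was higher by 0.26 (adjusted p = 0.615). *FADS2* and *GPAM* were the 2 of 21 genes of fatty acid and triglyceride synthesis higher at p under 0.05 (against 2.23% of all clusters). None was lower. Of 33 PPARα targets and fatty acid oxidation genes, 19 had positive and 14 negative estimates, with a median of 0.02. At p under 0.05, 4 were higher and 1 lower (against 2.23% and 3.88% of all clusters). The higher ones included *FABP1* (fatty acid binding, 0.27) and *HADH* (mitochondrial dehydrogenase, 0.24), and the lower one was *ECH1* (−0.23). Of 8 genes of ketogenesis and ketone export, 1 was higher (against 2.23% of all clusters) and none lower. It was the transporter *SLC16A7* (0.36, adjusted p = 0.604), with 0.04 within the *FGF21* high and 0.69 within the *FGF21* low group (interaction adjusted p = 0.9995).

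Of 22 genes of cholesterol synthesis, 4 were higher and 1 lower at p under 0.05 (against 2.23% and 3.88% of all clusters), with 21 positive estimates and a median of 0.13. The median was 0.03 within the *FGF21* high and 0.26 within the *FGF21* low group, and 13 of the 22 estimates were positive within both. *FDFT1* (squalene synthase) was higher by 0.32 and *NSDHL* by 0.16, and the sterol carrier *STARD4* was lower by 0.26. The count of higher genes was 0 without replicate 1 or without replicate 7 of the *FGF21* low group, 7 without replicate 7 of the *FGF21* high group and 10 with *IGF1* as a continuous covariate. Of 19 genes of bile acid synthesis and transport, 4 were higher (against 2.23% of all clusters) and none lower. *CYP8B1*, the sterol 12-alpha-hydroxylase, was higher by 0.29 ± 0.07 (adjusted p = 0.414 by limma, exact permutation p = 0.000408, the smallest this design allows), and all 4 *IGF1*-high cows lay above all 4 *IGF1*-low cows within each label group. *CYP7A1*, the rate-limiting enzyme of bile acid synthesis, was higher by 0.50 ± 0.21 (adjusted p = 0.750), *SLC27A5* by 0.21 and the bile acid receptor *NR1H4* by 0.20. The count was 1 with the running number as a covariate and 2 with the 8 highest against the 8 lowest of all 16 cows.

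In glucose metabolism, *PC*, which encodes pyruvate carboxylase, was lower by 0.51 ± 0.13 (p = 0.000798, adjusted p = 0.414 by limma; exact permutation p = 0.00408). It ran from 9.45 through 9.90 to 10.37 in the *IGF1*-high cows and from 10.11 through 10.32 to 10.61 in the *IGF1*-low cows. With *LDHB* (−0.27) it was 1 of 2 genes lower among 17 of gluconeogenesis and glucose output (against 3.88% of all clusters), with none higher. Of 15 genes of propionate and lactate entry, 3 were higher and 1 lower (against 2.23% and 3.88% of all clusters). Among them were *PCCB* (a subunit of propionyl-CoA carboxylase, 0.26), *ACSM3* (0.36) and *LDHA* (−0.29). *PPP1R3B*, which targets a phosphatase to glycogen, was higher by 0.54 ± 0.18 (adjusted p = 0.655). It was the only gene past p under 0.05 among 19 of glycolysis and insulin-induced genes (against 2.23% of all clusters higher).

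Of 32 genes of xenobiotic metabolism, 9 were higher and 1 lower at p under 0.05, against 2.23% and 3.88% of all clusters, with a median of 0.12. *CYP2C18* was higher by 0.52, *CYP1A1* by 0.32, the monooxygenase *FMO5* by 0.31 and *CYP2E1* by 0.15. Members of the CYP2C family share long stretches of sequence, and how their probes share signal is uncertain. *DIO1*, which activates thyroid hormone, was higher by 0.52 ± 0.15 (adjusted p = 0.534 by limma). *DIO1* and *TTR* were the 2 of 11 genes of the thyroid hormone axis higher at p under 0.05 (against 2.23% of all clusters). Of 9 urea cycle genes, *OTC* was higher by 0.27 and *ARG1* lower by 0.33 (1 each, against 2.23% and 3.88% of all clusters). *HGF*, hepatocyte growth factor, was higher by 0.25 (adjusted p = 0.540) and did not overlap within either label group, a trait not counted over all clusters.

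Of 28 genes that fold proteins in the endoplasmic reticulum (ER) or degrade misfolded ones, 4 were lower (against 3.88% of all clusters) and none higher, with 26 negative estimates and a median of −0.15. These were *PDIA4* (−0.38), *WFS1* (−0.33), *DERL3* (−0.25) and *SDF2L1* (−0.22). Without replicate 2 of the *FGF21* low group, the highest of the *IGF1*-low cows at 10.99, the difference of *PDIA4* was −0.21. The count was 8 without replicate 1 of the *FGF21* low group and 2 without replicate 1 or without replicate 7 of the *FGF21* high group. The median was −0.27 within the *FGF21* high and 0.00 within the *FGF21* low group. Of 24 interferon-stimulated genes none was past p under 0.05, with a median of −0.20 over all cows, 0.09 within the *FGF21* high and −0.62 within the *FGF21* low group. Without replicate 2 of the *FGF21* low group the median over all cows was 0.02. Whether these lists differ between label groups was not tested.

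**Figure D4:**
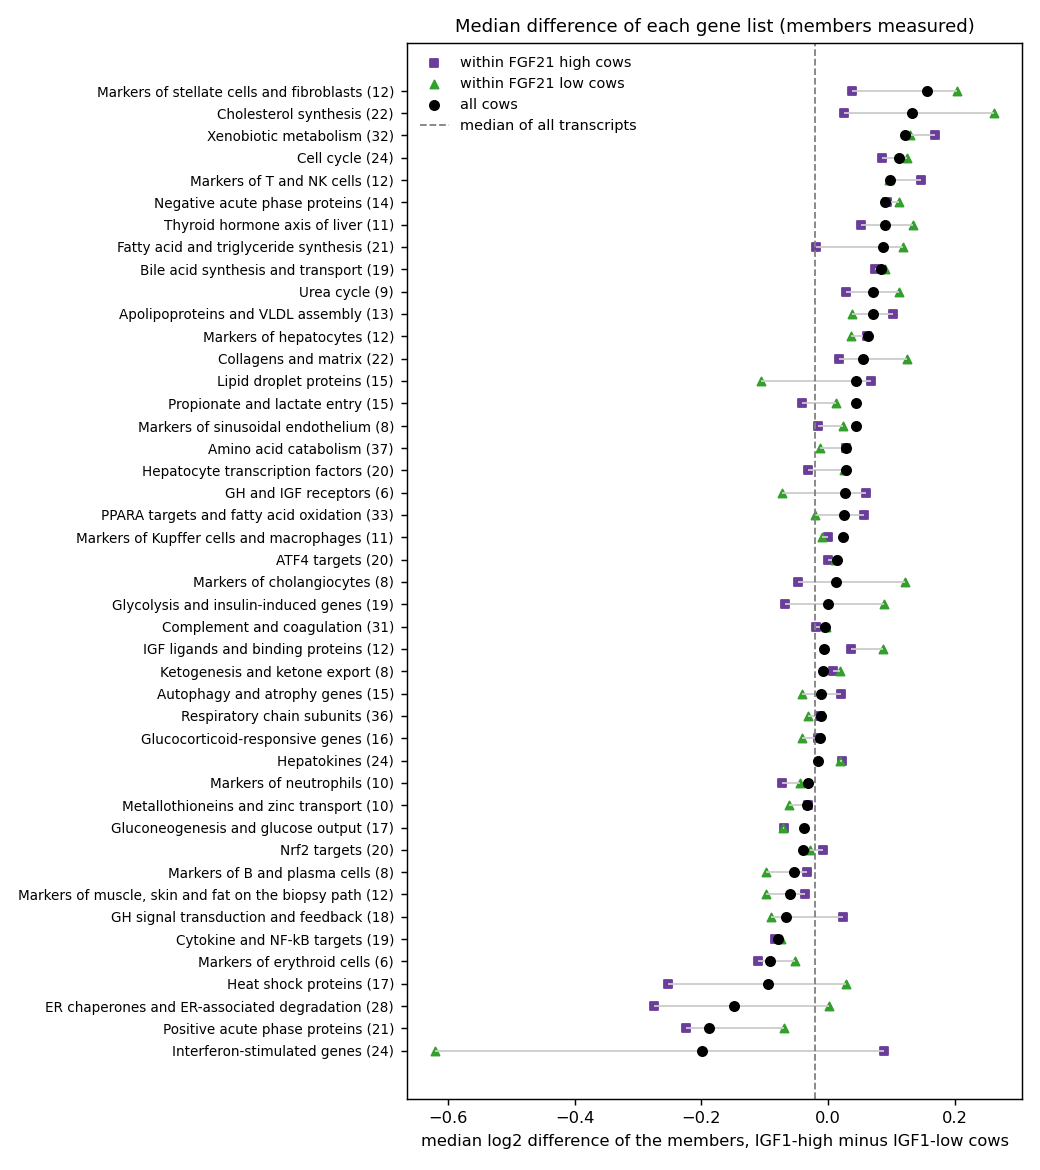
Median log2 difference (horizontal axis) of the measured members of each of 44 gene lists (vertical axis), over all cows (black circles), within the *FGF21* high cows (purple squares) and within the *FGF21* low cows (green triangles). The dashed line is the median of all clusters, −0.02. The positive acute phase proteins and ER chaperones lie left of it over all cows, and the interferon-stimulated genes lie at 0.09 and −0.62 in the 2 label groups.

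Markers of other cell types were examined in the same fit. All 12 markers of stellate cells and fibroblasts had positive estimates, against 41.6% of all clusters, with a median of 0.16. At p under 0.05, 3 were higher (*COL3A1* 0.39, *RELN* 0.34, *DCN* 0.19), against 2.23% of all clusters. The median was 0.04 within the *FGF21* high and 0.20 within the *FGF21* low group, and 7 of the 12 were positive within both. Their mean log2 signal was 7.01 to 7.52 in the *IGF1*-high and 6.92 to 7.30 in the *IGF1*-low cows. *SPARC* is also made by these cells, and the part of cell composition in its difference was not tested. In bulk liver, fewer cells of a type and less RNA per cell cannot be told apart. Of 10 neutrophil markers 2 were lower, *S100A8* (−0.26) and *S100A12* (−0.29), against 3.88% of all clusters, and none was higher. The 10 estimates were 5 positive and 5 negative, with a median of −0.03. The neutrophil list averaged 5.50 to 5.87 in the *IGF1*-high and 5.55 to 5.95 in the *IGF1*-low cows. None of 11 markers of Kupffer cells and macrophages was past p under 0.05, with a median of 0.02. Of 12 T and NK cell markers 1 was higher, *KLRK1* (0.44), with a median of 0.10. Of 8 cholangiocyte markers 2 were higher, among them *ANXA4* (0.25), with 4 positive and 4 negative estimates and a median of 0.01. The share of all clusters higher was 2.23%.

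The difference between *IGF1*-high and *IGF1*-low cows was also compared between the label groups. No transcript passed the adjusted threshold (smallest adjusted p = 0.9995 by limma), and 690 (3.38%) had an unadjusted p under 0.05, where 5% would pass with no difference. The 5 named transcripts with the smallest interaction p were *METTL7A* (difference of differences 0.90), *HBE4* (0.80), *OR6Y1* (0.66), *GPX5* (−0.64) and *TSPAN8* (−0.57). All but *METTL7A*, a membrane-bound methyltransferase of hepatocytes, had low signals. *METTL7A* was 0.43 higher in *IGF1*-high than *IGF1*-low cows of the *FGF21* high group and 0.47 lower in those of the *FGF21* low group.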

How the data were processed

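RNA of 16 liver biopsies was run on Affymetrix arrays, and Affymetrix Expression Console 1.4 is named in the submitters' processing notes. The values that the authors deposited are log2 signals, 1 per transcript cluster and array, summarised by RMA following signal space transformation. RMA brings the signal distributions of the arrays close together, though not to equality here (array medians of 6.25 to 6.34). A shift shared by most genes therefore cannot be read from these values. RMA also compresses differences near saturation and background. A deposited table holds the same log2 values rounded to 2 decimals. The authors' own group means, fold changes and p-values in the sheet were not used. There is no read depth, and precision depends on the number of arrays and on RNA quality. The study reports some RNA degradation, which it says can limit the sensitivity and specificity of the arrays. The sample labels used here give no RNA integrity per cow, so its part in the differences was not tested. No cluster was filtered out.

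The difference between *IGF1*-high and *IGF1*-low cows was fitted with limma 3.58.1 in R 4.3.3 (lmFit, eBayes, label group as a fixed term) over 20420 clusters, all but that of *IGF1*, and adjusted by Benjamini-Hochberg. The second criterion was p under 0.05 without adjustment and a change above 1.2-fold, as in the study's methods. Folds were computed from differences of log2 means. Exact permutation tests ran over all 4900 assignments within label groups, two-sided, with a smallest p of 0.000408, and their p-values are not adjusted. Figures and exact tests used Python 3.11.15, numpy 2.4.6, pandas 2.3.3 and matplotlib 3.10.9.

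The split, the 44 gene lists (767 of 798 entries with a cluster) and the tests were chosen with earlier results of these data known. A gene with several clusters was read from the brightest. Symbols are those of the array, else those of RefSeq's ARS-UCD2.0 table through the accession. Named genes are, by rule, *IGF1*, *FGF21*, the 10 transcripts with the smallest p in each direction, up to 4 members with the smallest p per list, members of the GH and IGF lists and the 5 with the smallest interaction p. *SAA4*, *C3* and *ALB* were named outside it, after their values were seen, and a few genes that the rule names are not reported here. Alternatives covered the test, the block, array weights, *IGF1* as a continuous covariate, other splits by *IGF1*, scaling, a signal filter, running and replicate numbers, and leaving out each cow.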

Additional observations from a re-analysis of the deposited data

Results flagged for a closer look

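For the 98 genes named in the comparison of *IGF1*-high with *IGF1*-low cows, the cow at either end of each set of 8 was compared with the rest by Dixon's ratio (its gap to the nearest cow over the range of the set). In 14 of 196 sets the ratio was above the critical value for 8 samples, where chance gives about 5%. In the *IGF1*-high cows these were *IGFBP2* (0.617, lowest in replicate 5 of the *FGF21* high group), *PPP1R3B* (0.578, highest in the same cow), *CYP8B1* (0.601, lowest in replicate 6 of that group), *STAT3* (0.571, highest in the same cow), *CYP2C18* (0.528, lowest in replicate 2 of that group) and *SLC39A8* (0.581, highest in replicate 7 of the *FGF21* low group).

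In the *IGF1*-low cows they were *CISH* (0.784) and *IGFBP2* (0.526), both lowest in replicate 1 of the *FGF21* high group, *NEURL2* (0.706, highest in replicate 1 of the *FGF21* low group), *BHMT* (0.661) and *ARG1* (0.553), both highest in replicate 3 of that group, and *HSPE1* (0.638), *DERL3* (0.631) and *DCN* (0.53), all highest in replicate 2 of that group.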

How the results depend on the processing

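The 2 adjusted calls did not hold under most alternatives. The count was 0 with the methods' t-test, without the label-group block, with array weights, with *IGF1* as a continuous covariate, with only the 3 highest and 3 lowest cows of each label group, with the running number as a covariate and with the replicate block. It was 1 with the 8 highest against the 8 lowest of all 16, with clusters above the median signal only, and without the 4 arrays with the widest deviations (an alternative added after seeing the data), and 0 to 3 with single cows left out (1 without replicate 2 and 3 without replicate 6 of the *FGF21* high group, 0 without any other). At p under 0.05 and above 1.2-fold, 151 transcripts were lower with continuous *IGF1*, 406 with the 3 against 3 split, and 126 were higher and 72 lower with the signal filter, which tests fewer clusters (632 at p under 0.05 alone). With single cows left out, 177 to 238 were higher, 250 to 356 lower and 1097 to 1711 past p under 0.05 alone, and 622 to 939 for the interaction with none adjusted. Of the positive acute phase proteins, 5 were lower with continuous *IGF1* and 8 to 11 with single cows left out. The causes were not tested.

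Replicate numbers do not pair the cows: the correlation of same-numbered cows' deviations ran from −0.205 to 0.134, and no cow correlated best with its own number. With the replicate block, which rests on the 2 numbers split between *IGF1* sets, 255 transcripts were higher and 684 lower at p under 0.05 and above 1.2-fold, none of the xenobiotic or bile acid genes was higher and 9 interferon-stimulated genes were lower at p under 0.05, *NFKBIA* reversed to 0.20 and *CYP7A1* to −0.025. A second *IGF1* cluster could not be tried, since the array has 1.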

Other observations

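Some of the larger differences between *IGF1*-high and *IGF1*-low cows lay outside the lists, and the following were chosen after their values were seen. The largest in the positive direction was that of *LOC781415*, an unnamed locus, at 6.92 ± 0.91 (SD, n = 8) in the *IGF1*-high and 5.42 ± 1.18 in the *IGF1*-low cows, 2.83-fold higher (adjusted p = 0.569 by limma). *GPNMB*, a membrane glycoprotein of macrophages and other cells, was 8.21 ± 0.35 (SD, n = 8) in the *IGF1*-high and 7.30 ± 0.67 in the *IGF1*-low cows, a difference of 0.91 ± 0.23 (SE, adjusted p = 0.414 by limma). *CGN1*, which encodes the bovine collectin conglutinin, was 9.70 ± 0.84 against 8.74 ± 1.04, a difference of 0.96 ± 0.38 (adjusted p = 0.723). *PYROXD2*, a putative mitochondrial oxidoreductase, is read by a pair of clusters, with differences of 0.86 (adjusted p = 0.414) and 0.56 (adjusted p = 0.562). *LOC104968478*, an unnamed locus on chromosome 29 as *SAA3* is, was lower by 1.36 ± 0.34 (adjusted p = 0.414).

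The remaining gene lists had few members past p under 0.05 without adjustment, where 2.23% of all clusters were higher and 3.88% lower. None of 36 respiratory chain subunits (median −0.01), 13 genes of apolipoproteins and VLDL assembly (0.07) or 15 lipid droplet proteins (0.04) was past it. Among 17 heat shock proteins 3 were lower and none higher (median −0.10, with −0.25 within the *FGF21* high and 0.03 within the *FGF21* low group), *HSPD1*, *HSPA4L* (−0.28) and *HSPE1* (−0.19). Of 20 ATF4 targets 2 were higher, *PSAT1* (0.37, serine synthesis) and *TRIB3* (0.25), and 1 was lower, *NUPR1* (−0.23). Of 37 genes of amino acid catabolism (median 0.03) 1 was higher and 1, *BHMT*, lower. Of 16 glucocorticoid-responsive genes the cortisol-activating enzyme *HSD11B1* and the receptor *NR3C1* were higher, each by 0.18, and that count was 0 or 1 in most fits with a cow left out. The difference of *NR3C1* was 0.32 within the *FGF21* high and 0.05 within the *FGF21* low group.

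Of 10 metallothioneins and zinc transporters *SLC39A14*, a zinc importer, was lower (−0.26) and *SLC39A8* higher (0.18). Of 24 hepatokines 4 were higher and 1 lower (against 2.23% and 3.88% of all clusters), *HGF* and *AHSG* among the former. Of 22 collagens and matrix genes 3 were higher and none lower, *SPARC*, *COL3A1* and *DCN*. Of 24 cell cycle genes (median 0.11), 20 Nrf2 targets (−0.04), 15 genes of autophagy and atrophy (−0.01) and 20 hepatocyte transcription factors (0.03), 1 each was higher and none lower. With 2.23% of all clusters higher, these single calls are not read as differences of the lists. Of 12 hepatocyte markers 2 were higher, among them *TTR*. None of 8 markers of sinusoidal endothelium (0.04), 6 of erythroid cells (−0.09) or 12 of muscle, skin and fat on the biopsy path (−0.06) was past the threshold, and of 8 markers of B and plasma cells (−0.05) 1 was lower.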
